A study of Mus musculus with 72 samples.

Results

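The natriuretic peptides and their receptors were followed through the 72 RNA-seq libraries of the series. The members were chosen by symbol and are Nppa, Nppb, Npr1, Npr2 and Npr3, 5 of the 50600 genes in the count table. They were picked because earlier results of these data had placed Nppb among the genes that rose after gastrin-releasing peptide (GRP), so their values in GRP against mock in the 4 lines that express Grpr are given as a description, with no test.

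Nppa encodes atrial natriuretic peptide (ANP) and Nppb encodes B-type natriuretic peptide (BNP), hormones best known from the heart muscle, where stretch and load raise them and where Nppb is an early-response gene. Both peptides bind NPR1, a membrane guanylate cyclase that makes cyclic GMP, while NPR2 is the cyclase for C-type natriuretic peptide, the product of Nppc. NPR3, the clearance receptor, has no cyclase domain, takes up and degrades the peptides and couples to inhibitory G proteins. Cyclic GMP acts through cGMP-dependent kinases, is broken down by phosphodiesterases and leaves cells by export.

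The libraries came from 6 mouse melanoma lines, each given 4 treatments with 3 replicates, 24 groups in all. Lines 1057 and 1064 were derived from tumours of female mice that carried Tyr::NRASQ61K/°, Cdkn2a-/-, Tyr::CreA/° and Cdh1dF/dF, so that E-cadherin is deleted in the melanocyte lineage (∆Ecad), and both express their own Grpr, the GRP receptor gene. Lines 1181-Grpr and 1181-Ctrl are versions of a male line with Tyr::NRASQ61K/°, Cdkn2a-/- and Cdh1dF/dF but °/° at the place of the Cre allele. Lines 1014-Grpr and 1014-Ctrl are versions of a female line with Tyr::NRASQ61K/°. The paper describes 1181 and 1014 as lines that have E-cadherin. The Grpr versions carry CMV::Grpr/tGFP and the control versions CMV::tGFP, brought in by plasmid transfection and kept by geneticin selection. Every line therefore carries the NRAS transgene, driven by the tyrosinase promoter. Lines 1057 and 1064 share a genotype, and between them line and animal cannot be told apart. Each other genotype is represented by 1 parental line, so there line, animal and genotype cannot be told apart. Cells were kept for 18 h in 0.5% FCS and then treated for 4 h with 0.1% DMSO (mock), 10 nM GRP, the GRP receptor antagonist RC-3095 at 1 µM (RC), or both agents at these doses (GRP+RC). The labels do not say that replicates are separate cultures, so p-values measure the spread between these samples, which may be technical.

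The 2 peptide genes lie side by side on the plus strand of chromosome 4 in GRCm38. Nppb (ENSMUSG00000029019) runs from 147985788 to 147987205 and Nppa (ENSMUSG00000041616) from 148000722 to 148002079, with 13.5 kb between them. The receptor genes are Npr1 (ENSMUSG00000027931, chromosome 3, 90450591 to 90465866, minus strand), Npr2 (ENSMUSG00000028469, chromosome 4, 43631935 to 43651244, plus strand) and Npr3 (ENSMUSG00000022206, chromosome 15, 11839896 to 11907287, minus strand). The promoters of the peptide genes are shown because 1 of these neighbours was measured in every line and the other was not. They are the 250 bases before each RefSeq start site in GRCm38.p6, plus strand, 5′ to 3′, chr4:147985650-147985899 for Nppb and chr4:148000472-148000721 for Nppa. The GENCODE model of Nppb begins inside its window, upstream of the RefSeq start. Capitals mark matches to the motifs that were looked for.
Nppb: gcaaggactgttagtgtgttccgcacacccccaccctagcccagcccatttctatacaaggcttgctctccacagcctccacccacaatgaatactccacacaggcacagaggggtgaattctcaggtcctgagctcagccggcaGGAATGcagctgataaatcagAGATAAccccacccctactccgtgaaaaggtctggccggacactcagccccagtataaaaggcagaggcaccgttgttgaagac
Nppa: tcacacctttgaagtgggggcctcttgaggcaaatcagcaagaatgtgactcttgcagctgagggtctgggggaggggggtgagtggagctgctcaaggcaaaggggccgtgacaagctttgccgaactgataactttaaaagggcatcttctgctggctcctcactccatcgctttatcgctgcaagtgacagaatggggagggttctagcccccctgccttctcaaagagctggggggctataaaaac

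Both strands of each window were searched for 5 motifs. The AP-1 motif, bound by Fos and Jun proteins, was written as TGANTCA. The CRE, bound by CREB, was written as TGACGTCA. The motif of the GATA factors was written as AGATAA and the M-CAT element, to which TEAD factors bind, was written as CATTCC. The CArG box, bound by SRF, was searched by its usual pattern. The Nppb window held GATA at -84 to -79 on the plus strand and M-CAT at -105 to -100 on the minus strand, counted from the start site, and the other 3 motifs had no match. The same windows of all 32851 RefSeq promoters held a GATA match in 9.99% and an M-CAT match in 12.6%. AP-1 was matched in 6.75% of promoters, CRE in 1.55% and the CArG box in 1.47%. The Nppa window and those of Npr1, Npr2 and Npr3 held no match to any of the 5 as written here. GATA was searched as AGATAA only. TGATAA, which differs from it in the first base, occurs in both the Nppb and the Nppa window. A match is a description of the sequence and not a measured binding site.

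Library totals ran from 19512882 to 46862053 counted reads, and a floor of 3 counts was at most 0.154 CPM (counts scaled to a common library total, as in every CPM value here). Of 7 melanocyte lineage markers, 6 were at 1 CPM or more in every library, Tyrp1 being the exception in 1181-Ctrl. Cardiomyocyte markers summed to between 0.0619 and 2.74 CPM, and 4 of 6 were below 1 CPM in every library. Summed markers reached 29.3 CPM for endothelial cells, 21.9 CPM for fibroblasts and 32.7 CPM for blood cells. Grpr stood at 187 to 275 CPM in 1057, at 472 to 1284 CPM in 1064 and, apart from 1 library, at 8.49 to 79.9 CPM in 1181-Grpr. It was at 107 to 620 CPM in 1014-Grpr and, apart from 1 library, at most 0.0915 CPM in the control lines. The Grpr ranges were normalized over the 72 libraries and the means below within each line, so they are not on the same scale. The transgene's level itself moved with treatment. Its mean went from 127 CPM in mock to 546 CPM after GRP in 1014-Grpr and from 12.5 to 49.4 CPM in 1181-Grpr. For the lines with their own receptor, mean Grpr went from 891 to 443 CPM in 1064 and from 245 to 186 CPM in 1057. The part of this in the results was not tested.

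The markers of 2 libraries went against their labels. The library labelled 1014-Ctrl mock replicate 2 had 1165 counts of Grpr and 1557 of the Y-linked Ddx3y, and the library labelled 1181-Grpr GRP+RC replicate 2 had 0 of both. In addition, the other 11 libraries of 1181-Grpr held Ddx3y (37.1 to 63.3 CPM) and Xist, which is transcribed from the inactive X chromosome (193 to 248 CPM), while Xist was at most 0.641 CPM in 1181-Ctrl. Dct, a melanin synthesis gene, was at 5216 to 5730 CPM in those 11 libraries and at 163 to 339 CPM in 1181-Ctrl. Cdh1, the gene of E-cadherin, had 281 to 738 counts in those 11 libraries and 357 to 918 in 1181-Ctrl. It had 24 to 87 counts in 1014-Grpr and, apart from the library against its label, 55 to 142 in 1014-Ctrl. Lines 1057 and 1064 had 0 to 2 and 0 to 3 counts of Cdh1. The library labelled 1014-Ctrl mock replicate 2 had Dct at 5579 and Xist at 172 CPM. The library labelled 1181-Grpr GRP+RC replicate 2 had Dct at 21715 and Xist at 794 CPM. In the rest of 1014-Ctrl, Dct was at 20646 to 22466 and Xist at 583 to 1051 CPM. Whether the 2 libraries had been exchanged was not tested. All libraries were kept under their labels, fold changes that the 2 libraries moved most are given with and without them, and no library given RC alone was among the 2.

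Nppb was the member that moved. After GRP its fitted level was 11.9 times that of mock in 1057, 8.59 times in 1064 and 12.1 times in 1014-Grpr, while in 1181-Grpr it was 1.46 times, in 1181-Ctrl 1.09 times and in 1014-Ctrl 1.2 times. In bulk samples such as these, fewer cells with a transcript and less of it per cell cannot be told apart. These levels are CPM normalized by TMM within each line, given for replicates 1, 2 and 3 in turn.

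In 1057, Nppb was at 1.12, 1.08 and 1.16 CPM in mock and at 12.3, 13.4 and 14.5 CPM after GRP. It was at 1.87, 1.83 and 1.39 CPM after RC and at 5.02, 4.84 and 5.17 CPM after GRP+RC. The 4 groups of 1057 did not overlap and stood in the order mock, RC, GRP+RC and GRP. The log2 fold change of GRP against mock was 3.58 ± 0.11 (SE), and that of GRP+RC against GRP was -1.42 ± 0.09.

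In 1064, Nppb was at 11.9, 6.09 and 23.7 CPM in mock and at 215, 90.3 and 54.8 CPM after GRP. It was at 37.8, 18.2 and 19.1 CPM after RC and at 56.4, 19.8 and 25.5 CPM after GRP+RC. All 3 GRP libraries were above all 3 mock libraries, and the mock, RC and GRP+RC groups overlapped. The log2 fold change of GRP against mock was 3.10 ± 0.66 (SE) and ran from 2.27 without replicate 1 to 4.09 without replicate 3. With the replicate number as a block, which the paired samples of this line allow, it was 2.92.

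In 1014-Grpr, Nppb was at 15.9, 13.1 and 12.7 CPM in mock and at 134, 215 and 156 CPM after GRP. It was at 22.6, 21.7 and 19.2 CPM after RC and at 34.8, 41.2 and 38.2 CPM after GRP+RC. The groups did not overlap and stood in the same order as in 1057. The log2 fold change was 3.59 ± 0.17 (SE) for GRP against mock and -2.14 ± 0.15 for GRP+RC against GRP.

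In 1181-Grpr, Nppb was at 8.74, 8.49 and 13.1 CPM in mock and at 21.6, 9.07 and 13.5 CPM after GRP. It was at 8.48, 7.89 and 10 CPM after RC and at 10.8, 24.7 and 14.5 CPM after GRP+RC. The highest GRP+RC value belonged to the library that went against its label, and the GRP and mock groups overlapped. The log2 fold change of GRP against mock was 0.55 ± 0.35 (SE), and it was 0.07 without replicate 1.

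The control lines carry no Grpr transgene. In 1181-Ctrl, Nppb was at 8.3, 2.7 and 8.88 CPM in mock, at 11.8, 1.5 and 8.37 CPM after GRP, at 12.3, 2.52 and 6.88 CPM after RC and at 12.6, 2.37 and 7.42 CPM after GRP+RC. Replicate 2 of 1181-Ctrl was the lowest library in each of the 4 treatments. In 1014-Ctrl it was at 16.5, 8.87 and 15.9 CPM in mock, at 14.7, 20.3 and 14.6 CPM after GRP, at 17, 21.7 and 16.7 CPM after RC and at 15.9, 23.1 and 17.3 CPM after GRP+RC. The lowest of these, 8.87 CPM, belonged to the library labelled 1014-Ctrl mock replicate 2. By the quasi-likelihood test of edgeR, with p-values adjusted over all genes after Benjamini and Hochberg, the log2 fold change of GRP against mock was 0.13 ± 0.83 (SE, adjusted p = 1) in 1181-Ctrl and 0.26 ± 0.24 (adjusted p = 0.698) in 1014-Ctrl, where it was 0.03 without that library. The control lines gave 8 tests of members that passed the filter on low counts. Of these 0 were called, against 0% of all genes tested in either line. An unadjusted p under 0.05 was reached in 0 of them. It was reached by 37 of 14188 genes in 1181-Ctrl and by 562 of 13755 in 1014-Ctrl.

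**Figure D1:**
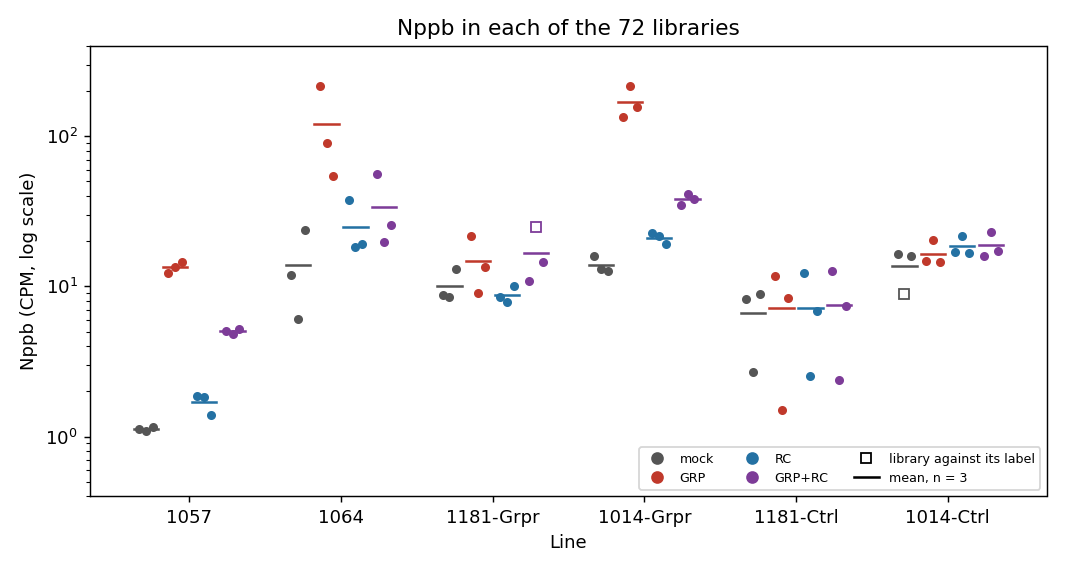
Nppb in every library, in TMM-normalized CPM on a log axis, by line and treatment, with points for replicates 1 to 3 from left to right and bars for their means (n = 3). GRP libraries stand above the mock libraries of their line in 1057, 1064 and 1014-Grpr and overlap them in 1181-Grpr, 1181-Ctrl and 1014-Ctrl, and open squares mark the 2 libraries that went against their labels.

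Markers of other cell types also moved with GRP in some lines. Their sums are given here normalized within each line. The 3 blood cell markers summed to 1.14 to 1.58 CPM in mock and to 5.25 to 5.9 CPM after GRP in 1057, and to 2.01 to 3.21 and 4.63 to 8.86 CPM in 1014-Grpr. In 1064 these groups overlapped, at 1.27 to 3.7 and 2.59 to 4.41 CPM. In 1057 the sums were also higher in all GRP+RC libraries (2.58 to 3.07 CPM) than in all RC libraries (1.87 to 2.41 CPM). When normalized over the 72 libraries instead, Cd68, 1 of the 3, stood at 1.24 to 32.7 CPM. On that scale the defining leukocyte gene Ptprc was at most 0.308 CPM and Adgre1 at most 0.0441 CPM. In 1057 the summed fibroblast markers (3.5 to 4.22 and 5.13 to 5.85 CPM) and endothelial markers (6.63 to 7.96 and 8.65 to 9.07 CPM) were likewise higher in the GRP libraries than in mock. The part of these in the Nppb result was not tested.

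RC alone was compared with mock as a description. The Nppb libraries given RC lay above all mock libraries in 1057, 1014-Grpr and 1014-Ctrl. How many of all genes were separated in this way was not counted. An unadjusted p under 0.05 by edgeR was reached by 5009 of 14195 genes in 1057. It was reached by 161 of 13730 in 1014-Grpr and by 694 of 13755 in 1014-Ctrl. A shift from mock after RC was thus not particular to Nppb in 1057. The log2 fold change of Nppb was 0.61 ± 0.16 (SE) in 1057 and 0.60 ± 0.16 in 1014-Grpr. It was 0.84 ± 0.62 in 1064, while 1181-Grpr had -0.20 ± 0.36. In the control lines it was 0.13 ± 0.83 in 1181-Ctrl and 0.42 ± 0.24 in 1014-Ctrl, or 0.19 without the library against its label.

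GRP+RC against RC asks whether GRP moved the members while the antagonist was present. Its libraries are not those of GRP against mock, the comparison that led to the choice of the genes. The members were still chosen with earlier results of these data known, and the spread was estimated over all 12 libraries of a line. Nppb rose 2.92-fold in 1057, a log2 fold change of 1.54 ± 0.12 (SE, adjusted p = 2.76e-08 by edgeR), and all 3 GRP+RC libraries were above all 3 RC libraries. It was the 1 member of the 4 tested that was called there, while 0.916% of all genes were. Its log2 fold change lay between 1.42 and 1.63 over 10 alternatives, and the call was lost in one fit of all 72 libraries (adjusted p = 0.598). Npr3 had a log2 fold change of 0.22 with an adjusted p of 0.0163 in 1057, under the fold required for a call, and 20.7% of genes passed the adjusted p alone.

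In the other 5 lines 0 members were called in GRP+RC against RC by edgeR, also under each alternative, and 0% of all genes were. In 1014-Grpr, Nppb had a log2 fold change of 0.85 ± 0.16 (SE, adjusted p = 0.141 by edgeR), with no overlap between the 3 GRP+RC and the 3 RC libraries. The replicate number as a block, which the samples of 1014-Grpr share in pairs, gave 0.86 with an adjusted p of 0.00022, below the fold required for a call. In 1064 the log2 fold change was 0.44 ± 0.61 (adjusted p = 1 by edgeR) and in 1181-Grpr 0.92 ± 0.36 (adjusted p = 0.85), or 0.52 without the library that went against its label. In the control lines it was 0.05 ± 0.82 in 1181-Ctrl and 0.02 ± 0.24 in 1014-Ctrl (adjusted p = 1 in both). At an unadjusted p under 0.05 by edgeR there were 2 members in 1057, 1 in 1181-Grpr, 1 in 1014-Grpr and 0 in the other lines. Among all genes, 4376 of 14195 reached it in 1057, 264 of 14506 in 1181-Grpr and 952 of 13730 in 1014-Grpr.

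The difference between the Grpr and control versions in this comparison was tested as an interaction, chosen after the data were seen. For Nppb it was 0.83 ± 0.29 on the log2 scale in 1014 (SE, adjusted p = 1 by edgeR over all genes) and 0.88 ± 0.93 in 1181, or 0.48 without the library against its label. In both pairs 0 genes were called.

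**Figure D2:**
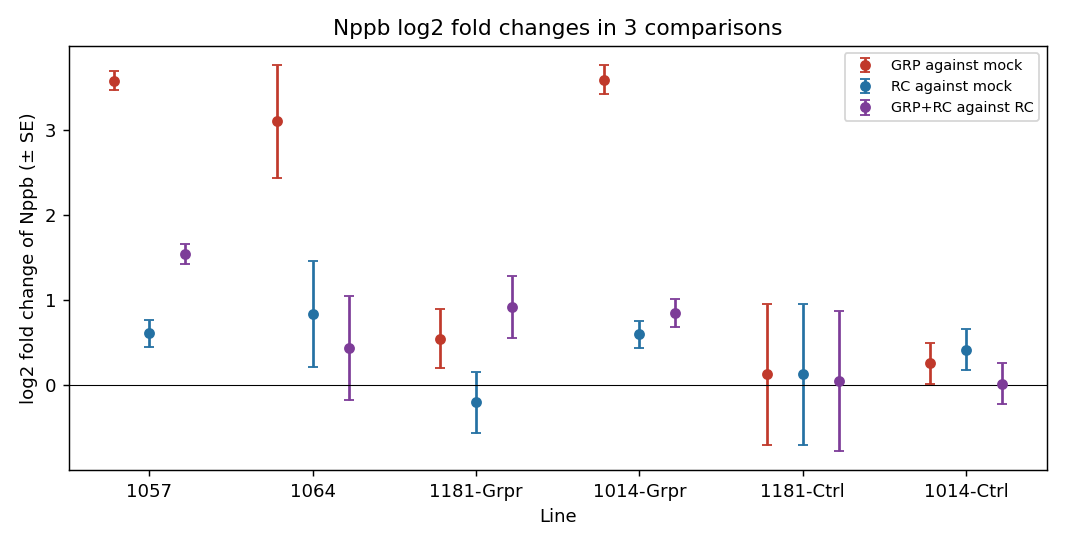
Log2 fold change of Nppb with its standard error, by line, for GRP against mock, RC against mock and GRP+RC against RC (edgeR, 12 libraries a line). GRP against mock lies at 3.58, 3.10 and 3.59 in 1057, 1064 and 1014-Grpr and at 0.55 or less in the other lines, and GRP+RC against RC lies at 1.54 in 1057 and at 0.92 or less elsewhere.

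Nppa, the neighbour of Nppb, stayed below the floor everywhere. It had 0 counts in 60 libraries, 1 count in 10 and 2 counts in 2, in GRP libraries as in the others, and it passed the filter on low counts in no line. A change of Nppa was therefore not detectable at this depth. Of its exon bases, 61.5% are overlapped by the antisense gene Gm13054, and the strand setting of the counting was not given in the sources used here.

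Among the receptors, the cyclase Npr2 was more abundant than the cyclase Npr1 in every library, and Npr3 had the widest range of levels over the lines. Levels between genes are compared in the authors' TPM (transcripts scaled to a common total), which divides by transcript length. Npr2 was above Npr1 in 72 of 72 libraries, with a ratio of 2.08 to 11.1 and a median of 6.32. Npr3 was above Npr1 in all 12 libraries of 1057 and of 1181-Ctrl, in 11 of 12 of 1181-Grpr, in 1 of 12 of 1014-Ctrl and in 0 of 12 of 1064 and of 1014-Grpr. The exception in 1181-Grpr and the single library of 1014-Ctrl were the 2 libraries that went against their labels. Antisense genes overlap 11.7% of the exon bases of Npr1 and 5.7% of those of Npr2, and a divergent transcript overlaps 3.4% of those of Npr3, so that their counts are uncertain to this extent.

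Npr1, the receptor of ANP and BNP, was low in all lines. In CPM normalized within the line, 1057 had 4.04, 4.13 and 3.72 in mock, 3.86, 3.52 and 3.82 after GRP, 4.61, 4.08 and 4.17 after RC and 4.63, 4.73 and 4.89 after GRP+RC. In 1064 Npr1 was at 5.91, 17.3 and 13.5 CPM in mock, 5.64, 21.9 and 16.9 after GRP, 7.31, 17.8 and 12.7 after RC and 6.63, 17.1 and 12.1 after GRP+RC. Replicate 1 of 1064 was the lowest and replicate 2 the highest in every treatment, so the spread between replicates was larger than any shift with treatment.

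In 1181-Grpr, Npr1 was at 4.5, 6.98 and 4.11 CPM in mock, 4.65, 7.58 and 5.67 after GRP, 4.33, 5.7 and 4.73 after RC and 5.02, 8.98 and 4.75 after GRP+RC, where 8.98 came from the library against its label. In 1181-Ctrl it was at 6.16, 12.9 and 8.28 CPM in mock, 5.65, 12.5 and 8.01 after GRP, 6.28, 12.8 and 9.01 after RC and 7.41, 11.7 and 8.65 after GRP+RC. Replicate 2 was the highest in both 1181 lines in every treatment. In 1014-Grpr it was at 9.82, 10.1 and 8.91 CPM in mock, 11.7, 11.2 and 11.3 after GRP, 12.1, 9.89 and 10 after RC and 11, 10.2 and 10.8 after GRP+RC. In 1014-Ctrl it was at 7.41, 6.43 and 10.1 CPM in mock, 8.04, 9.66 and 10.1 after GRP, 7.48, 10.5 and 9.74 after RC and 8.48, 9.68 and 9.45 after GRP+RC. The 3 GRP libraries of 1014-Grpr lay above its 3 mock libraries, and in 1014-Ctrl these groups overlapped. An unadjusted p under 0.05 by edgeR was reached there by 5482 of 13730 genes in 1014-Grpr and by 562 of 13755 in 1014-Ctrl.

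Npr2, the receptor of C-type natriuretic peptide, varied little with treatment. In 1057 it was at 41, 40.8 and 38.7 CPM in mock, 36.5, 38.2 and 36.8 after GRP, 40, 40.3 and 38.6 after RC and 39, 39.5 and 40.4 after GRP+RC. In 1064 it was at 38.3, 35.1 and 29.5 CPM in mock, 45.4, 46.8 and 38.9 after GRP, 43.5, 39.2 and 33 after RC and 43.3, 39.9 and 33.1 after GRP+RC. GRP libraries thus lay below all mock libraries in 1057 and above them in 1064. In the authors' TPM the groups of 1064 overlapped, with GRP replicate 3 at 26.2 and mock replicate 1 at 29.8. By edgeR, 8114 of 14195 genes in 1057 and 3068 of 13794 in 1064 had an unadjusted p under 0.05 in this comparison. In 1181-Grpr Npr2 was at 34.8, 45.1 and 35.8 CPM in mock and 34.9, 43.6 and 37.6 after GRP. It was at 35.9, 40.3 and 35.8 after RC and 35.3, 51.9 and 34.9 after GRP+RC.

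In 1014-Grpr, Npr2 was at 63.9, 61.9 and 62.9 CPM in mock, 63.7, 66 and 56.7 after GRP, 65.4, 64.2 and 61.9 after RC and 65.7, 67.4 and 59.4 after GRP+RC. The groups of this line overlapped. In 1181-Ctrl it was at 22.7, 41.6 and 46.6 CPM in mock, 23.3, 39.9 and 56.2 after GRP, 27.2, 37.5 and 48.7 after RC and 25.6, 40.7 and 48.8 after GRP+RC. In 1014-Ctrl it was at 53.9, 41.3 and 56.2 CPM in mock, 53.2, 54.6 and 61 after GRP, 51.8, 53.3 and 58.7 after RC and 54, 49.1 and 57.2 after GRP+RC. Replicate 1 was the lowest and replicate 3 the highest of 1181-Ctrl in every treatment, and the lowest value of 1014-Ctrl came from the library against its label.

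Npr3, the clearance receptor, ranged from near the floor to the level of Npr2. In 1057 it was at 18.3, 20.1 and 20.4 CPM in mock and 23.9, 25.4 and 24.4 after GRP. It was at 21.9, 21 and 22.3 after RC and 22.7, 26.8 and 26.6 after GRP+RC. Every treated library was above every mock library in CPM. In the authors' TPM, RC replicate 2 (9.92) was below mock replicate 3 (10). Of the 14195 genes tested in 1057, 8114 differed from mock after GRP at an unadjusted p under 0.05 by edgeR. After RC 5009 did, and after GRP+RC 7155. In 1064 Npr3 was at 0.444, 0.0472 and 0.304 CPM in mock and 0.381, 0 and 0.212 after GRP. It was at 0.554, 0.0967 and 0.244 after RC and 0.515, 0.0652 and 0.176 after GRP+RC. Replicate 2 of 1064 held the lowest Npr3 value in each treatment, and 8 of the 12 libraries were above the floor of 3 counts.

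In 1181-Grpr, Npr3 was at 65.3, 22 and 28.9 CPM in mock, 66.8, 26.3 and 31.4 after GRP, 70.7, 25.3 and 30.5 after RC and 68.1, 10.4 and 24.1 after GRP+RC, where 10.4 came from the library against its label. In 1181-Ctrl it was at 101, 41.5 and 37.5 CPM in mock, 84.7, 54.6 and 36.5 after GRP, 83.5, 43.8 and 34 after RC and 92, 45.8 and 36.7 after GRP+RC. Replicate 1 was the highest in both lines in every treatment. In 1014-Grpr it was at 4.6, 4.4 and 3.8 CPM in mock, 3.39, 3.75 and 3.99 after GRP, 5.89, 5.93 and 3.85 after RC and 6.12, 4.97 and 3.66 after GRP+RC. In 1014-Ctrl it was at 8.32, 22.4 and 6 CPM in mock, 9.02, 7.55 and 6.42 after GRP, 8.36, 8.88 and 5.1 after RC and 8.67, 6.1 and 6.25 after GRP+RC, and 22.4 came from the library against its label.

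The receptors' shifts with treatment were small beside that of Nppb. Over the 6 lines, the log2 fold change of GRP against mock ran from -0.09 to 0.27 for Npr1, from -0.11 to 0.35 for Npr2 and from -0.67 to 0.33 for Npr3. The lowest of these, for Npr3 in 1014-Ctrl, was -0.67 ± 0.42 (SE, adjusted p = 0.698 by edgeR) and lay between -1.02 and 0.10 over the alternatives. In GRP+RC against RC the ranges were -0.08 to 0.35 for Npr1 (lowest adjusted p = 0.311), -0.03 to 0.12 for Npr2 (lowest adjusted p = 0.866) and -0.30 to 0.22 for Npr3 (lowest adjusted p = 0.0163, in 1057). Without the 2 libraries against their labels, the ranges of Npr3 became -0.41 to 0.33 in GRP against mock and -0.22 to 0.22 in GRP+RC against RC, and in the latter those of Npr1 and Npr2 became -0.08 to 0.14 and -0.09 to 0.02. In 1181-Grpr, Npr1 went from 0.35 to -0.01 and Npr3 from -0.30 to 0.13 in GRP+RC against RC when that line's library was left out.

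**Figure D3:**
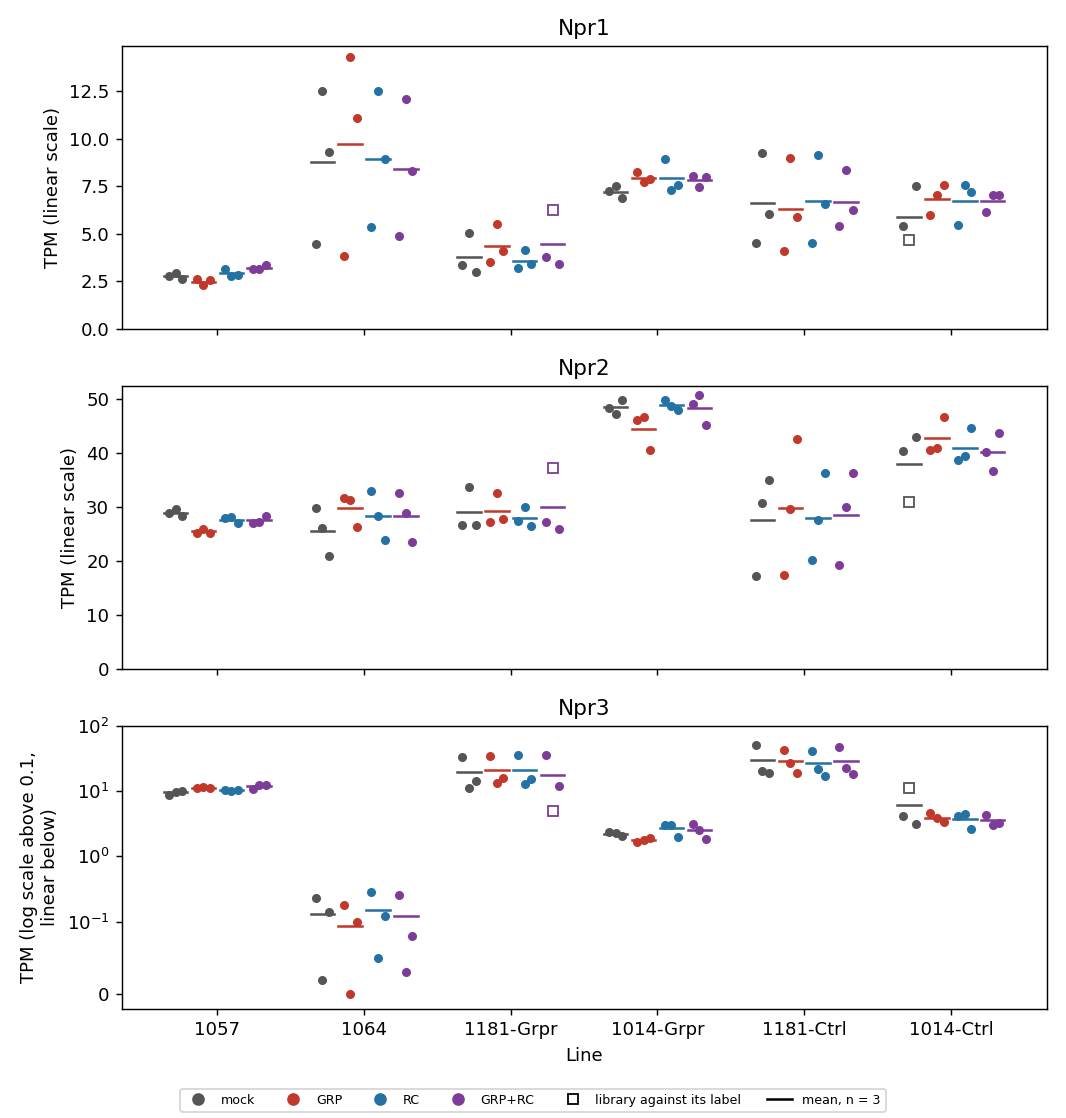
Npr1, Npr2 and Npr3 in every library, in the authors' TPM, by line and treatment, on linear axes for Npr1 and Npr2 and on an axis for Npr3 that is logarithmic above 0.1 and linear below. Bars are means (n = 3) and open squares mark the 2 libraries that went against their labels. Npr2 lies above Npr1 in all 72 libraries, and Npr3 is lowest in 1064 and highest in the 1181 lines.

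The order of the lines was read in the libraries given RC alone, in the authors' TPM (mean ± SD, n = 3). For Nppb, 1064 had 110 ± 52.3, 1014-Grpr 96.5 ± 6.99 and 1014-Ctrl 82.5 ± 11.5, and these 3 overlapped. Below them and without overlap, 1181-Grpr had 39.4 ± 4.74 and 1181-Ctrl 32.1 ± 21.7, and 1057 was the lowest at 7.08 ± 1.13. For Npr1, 1064 had 8.94 ± 3.57, 1014-Grpr 7.94 ± 0.882, 1181-Ctrl 6.75 ± 2.32 and 1014-Ctrl 6.75 ± 1.14, each overlapping the next. Npr1 was lower, with no overlap, in 1181-Grpr (3.59 ± 0.488) and lowest in 1057 (2.92 ± 0.195).

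Npr2 was highest in 1014-Grpr at 48.8 ± 0.882, followed without overlap by 1014-Ctrl at 40.9 ± 3.2. The other 4 lines overlapped between 27.7 ± 0.669 in 1057 and 28.3 ± 4.57 in 1064. Npr3 was at 26.8 ± 13.1 in 1181-Ctrl and 21.4 ± 12.9 in 1181-Grpr, which overlapped, and was lower without overlap in 1057 at 10.2 ± 0.272. It was lower again in 1014-Ctrl (3.75 ± 0.99) and 1014-Grpr (2.68 ± 0.583), which overlapped, and lowest, without overlap, in 1064 (0.15 ± 0.118).

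Pairs of lines were tested on the counts of the same 18 libraries. Between the ∆Ecad lines that express Grpr, 3 of 4 members were called, where 28% of all genes were. Nppb was lower in 1057 than in 1064 by a log2 fold change of -3.89 ± 0.44 (SE, adjusted p = 1.59e-06 by edgeR). Npr1 was also lower in 1057, at -1.57 ± 0.28 (adjusted p = 0.000183 by edgeR), and Npr3 was higher, at 6.17 ± 0.57 (adjusted p = 1.88e-07 by edgeR). All 3 calls held in each of 10 alternatives, and Npr2 differed by 0.02 ± 0.15.

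Between 1057 and 1014-Ctrl, 2 of 4 members were called, where 36.5% of genes were. Nppb was lower in 1057 by -3.22 ± 0.43 (SE, adjusted p = 6.64e-06 by edgeR) and Npr3 higher by 1.76 ± 0.40 (adjusted p = 0.00121 by edgeR). Npr1 differed by -0.89 ± 0.28 (adjusted p = 0.0112 by edgeR), under the fold for a call, and was called without replicate 1, at -1.08. Between 1181-Ctrl and 1014-Ctrl, 2 members were called, where 27.9% of genes were. Npr3 was higher in 1181-Ctrl by 2.74 ± 0.41 (adjusted p = 3.29e-05 by edgeR), and Nppb was lower by -1.45 ± 0.39 (adjusted p = 0.00451 by edgeR). The Nppb call was lost without replicate 2, at -0.91, and without replicate 3, at -1.49.

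The Grpr and control versions of a line showed 0 called members by edgeR, also in each of 10 alternatives, DESeq2 among them. Between 1014-Grpr and 1014-Ctrl, where 0.44% of genes were called, the 4 differences lay between -0.48 ± 0.42 for Npr3 and 0.26 ± 0.15 for Npr2 (adjusted p = 1 by edgeR for each member). Between 1181-Grpr and 1181-Ctrl, where 9.18% of genes were called, Npr1 differed by -0.86 ± 0.28 (adjusted p = 0.0412 by edgeR), and Nppb by 0.34 ± 0.39 (adjusted p = 0.58). Xist and Dct were also higher in 1181-Grpr than in 1181-Ctrl, as given above, and their part in this difference was not tested.

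The rest of the pathway was read from a list of 53 genes, of which 34 were tested in at least 1 line. This list was drawn up with earlier results of these data known. Its p-values in GRP against mock may therefore not be independent of the choice of genes. Over the 4 lines that express Grpr, GRP against mock gave 8 calls, 7 higher and 1 lower, in 6 genes. In 1057, 2 of the 27 tested genes were called where 6.46% of all genes were, in 1064 2 of 24 (2.32% of all genes), in 1014-Grpr 4 of 26 (4.01% of all genes) and in 1181-Grpr 0 of 26 (0% of all genes). In 1181-Ctrl 0 of 23 were called and in 1014-Ctrl 0 of 27, with 0% of all genes in both. At an unadjusted p under 0.05 there were 0 list genes in 1181-Grpr and in 1181-Ctrl and 3 in 1014-Ctrl, and DESeq2 called 0 in these 3 lines. Among all genes, 45 of 14506 reached that p in 1181-Grpr, 37 of 14188 in 1181-Ctrl and 562 of 13755 in 1014-Ctrl. The median log2 fold change of the tested list was 0.05 in 1057 and 0.26 in 1064, while 1014-Grpr had 0.11 and 1181-Grpr -0.01, and that of all genes lay between -0.02 and 0.00 in every line.

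Neither of the other ligands of the list passed the filter in any line. Nppc, which encodes the ligand of Npr2, had between 0 and 8 counts and Ostn, whose product binds Npr3, between 0 and 7. Corin, the protease that cleaves pro-ANP, had at most 2 counts. Of the 8 genes for processing and breakdown, 5 were tested in a line with Grpr and 0 were called. Furin, a convertase that cleaves pro-BNP, had a log2 fold change of 0.56 ± 0.06 in 1014-Grpr (adjusted p = 4.58e-05 by edgeR) and of -0.11 ± 0.03 in 1057 (adjusted p = 0.0151), both under the fold for a call.

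Among the 6 genes for cGMP kinases and their substrates, 5 were tested in lines with Grpr and 3 were called higher in at least 1 of them. Vasp, an actin regulator that is a classic substrate of cGMP-dependent kinase, was at 110, 86 and 105 CPM in mock and at 251, 259 and 255 CPM after GRP in 1014-Grpr. It was at 144, 94.7 and 183 CPM in mock and at 503, 314 and 365 CPM after GRP in 1064. The groups did not overlap in either line. Vasp rose by a log2 fold change of 1.35 ± 0.10 in 1014-Grpr (SE, adjusted p = 3.2e-06 by edgeR) and of 1.49 ± 0.28 in 1064 (adjusted p = 0.0158). In 1057 its log2 fold change was 0.52 (adjusted p = 4.12e-10), under the fold for a call. The other substrate called was Mrvi1 (Irag1), the partner of the kinase at calcium stores, which rose by 1.45 ± 0.50 in 1057 (adjusted p = 0.0215 by edgeR) from at most 9 counts per mock library to at most 18 per GRP library. The call of Mrvi1 was lost without replicate 2 (log2 fold change 1.61, adjusted p = 0.0591), without replicate 3 (0.84) and in one fit of all 72 libraries (1.43, adjusted p = 0.167).

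Prkg2, the membrane-bound cGMP-dependent kinase, was at 0.588, 0.339 and 0.403 CPM in mock and at 1.51, 1.77 and 1.14 CPM after GRP in 1014-Grpr. It rose by a log2 fold change of 1.71 ± 0.33 (SE, adjusted p = 0.00211 by edgeR), with no overlap between the groups, and the call was lost without replicate 2 (1.38, adjusted p = 0.0558). In 1064 it was at 1.89, 2.83 and 6.71 CPM in mock and at 9.57, 6.65 and 10.9 CPM after GRP, with an adjusted p of 0.118, and with the replicate number as a block, since samples of 1064 are paired, it was called (log2 fold change 1.31, adjusted p = 0.00188 by edgeR).

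Of 11 cGMP phosphodiesterases, 10 were tested in a line with Grpr. Pde1b, a calcium and calmodulin-dependent enzyme, was at 0.207, 0.523 and 0.0448 CPM in mock and at 2.53, 2.76 and 4.34 CPM after GRP in 1014-Grpr, a log2 fold change of 3.52 ± 0.44 (SE, adjusted p = 0.000122 by edgeR). In 1064 it was at 6.88, 12.4 and 7.01 CPM in mock and at 11.9, 38.7 and 11.6 CPM after GRP, and it was called with the replicate number as a block only (log2 fold change 1.08, adjusted p = 0.000359 by edgeR, against 0.248 without the block). In 1057 its log2 fold change was -0.11 ± 0.08. Pde1c, of the same family, fell in 1057 by a log2 fold change of -1.23 ± 0.38 (adjusted p = 0.0106 by edgeR), on at most 14 counts per library, and it was not called by DESeq2 (-1.24, adjusted p = 0.0746), without replicate 2 (-1.06, adjusted p = 0.116), without replicate 3 (-1.26, adjusted p = 0.0631) or in one fit of all 72 libraries (-1.25, adjusted p = 0.155). In 1014-Grpr the block, with paired samples, added Pde1a (log2 fold change 1.19, adjusted p = 0.00808 by edgeR).

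Of 13 factors known to act on Nppa and Nppb in the heart, 7 were tested in a line with Grpr and 1 was called. Gata4, Gata6, Nkx2-5, Tbx5, Tbx20 and Myocd, which are cardiac factors, had at most 6 counts in any library. Srf, which binds CArG boxes, was at 67, 55.4 and 60.3 CPM in mock and at 168, 184 and 140 CPM after GRP in 1014-Grpr, and it rose by a log2 fold change of 1.43 ± 0.11 (SE, adjusted p = 2.45e-06 by edgeR). In 1064 it was at 66.6, 41.5 and 60.9 CPM in mock and at 289, 149 and 129 CPM after GRP, and it rose by 1.75 ± 0.39 (adjusted p = 0.0268 by edgeR). In 1064 the calls of Vasp and Srf were lost without any one of the 3 replicates, with log2 fold changes of 1.29 to 1.78 for Vasp and 1.44 to 2.03 for Srf. In 1057 Srf had a log2 fold change of 0.16 (adjusted p = 0.00143), under the fold for a call. The other guanylate cyclases, the genes for cGMP export and channels and those for inhibitory G proteins gave 0 calls.

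With RC present, 0 of the tested pathway genes were called in GRP+RC against RC in any line, where 0.916% of all genes were in 1057 and 0% in each other line. By edgeR's unadjusted p under 0.05 there were 14 of 27 in 1057, 4 of 26 in 1014-Grpr and 0 in the other lines. Among all genes, 4376 of 14195 reached it in 1057 and 952 of 13730 in 1014-Grpr. DESeq2 called 0, and 9 genes in 1057 passed the adjusted p alone, 7 higher and 2 lower, as 20.7% of all genes did.

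The genes around Nppa and Nppb were examined in the same way. Of 26 neighbours whose gene body lies within 250 kb of either gene, 18 were tested in at least 1 line, and 1 was called in GRP against mock. This was Disp3, which starts 302.2 kb from Nppb and had 6 to 8 counts in the mock libraries of 1057 and 10 to 25 after GRP (log2 fold change 1.37 ± 0.39, SE, adjusted p = 0.00634 by edgeR). The call was lost without replicate 2 (0.96), without replicate 3 (1.37) and in one fit of all 72 libraries (1.33). This was 1 of 18 neighbours tested in 1057, where 6.46% of all genes were called, so their share was no higher than the background, and 0 of 17 were called in 1064 (2.32% of all genes) and 0 of 17 in 1014-Grpr (4.01% of all genes). Clcn6, a chloride transport gene beyond Nppa, was at 58.5, 54.7 and 54.7 CPM in mock and at 70.7, 69 and 70 CPM after GRP in 1057, a log2 fold change of 0.32 ± 0.04 (adjusted p = 9.06e-07 by edgeR) that is under the fold for a call. On the other side, the nearest tested gene was 2510039O18Rik, with a log2 fold change of 0.15 ± 0.03 (adjusted p = 0.00045 by edgeR) in 1057.

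Gm13054, antisense to Nppa, had 4 to 9 counts in mock and 9 to 16 after GRP in 1057 (log2 fold change 0.84 ± 0.40, SE, adjusted p = 0.0852 by edgeR). In GRP+RC against RC it was called in 1057 (1.33 ± 0.36, adjusted p = 0.0124 by edgeR), a result that was outside the planned tests and was chosen after its values were seen, and DESeq2 did not call it.

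**Figure D4:**
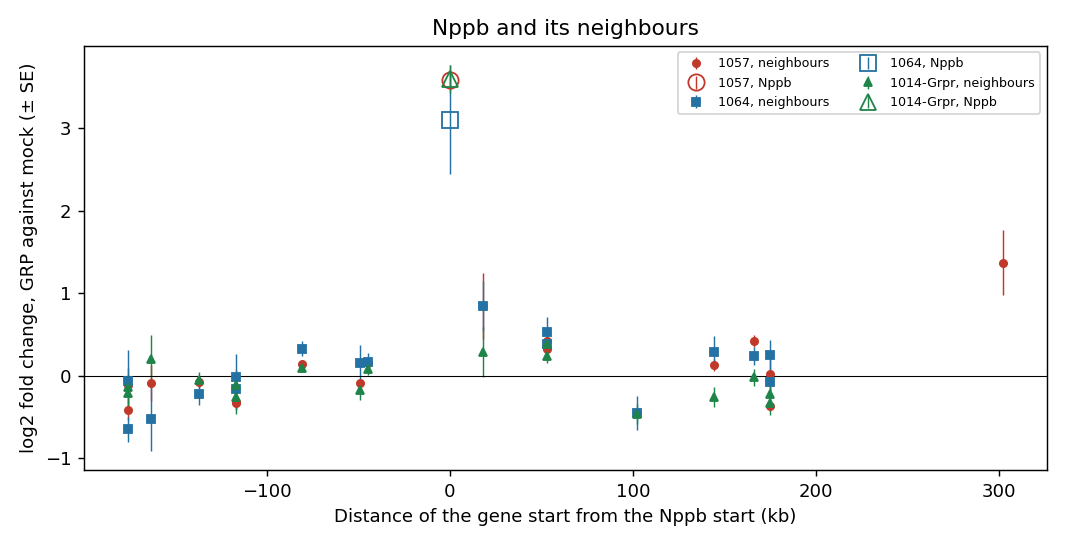
Log2 fold change of GRP against mock with its standard error for the tested neighbours (filled symbols) and for Nppb (open symbols), against the distance of the gene start from the Nppb start in kb, in 1057, 1064 and 1014-Grpr. Nppb lies at 3.58, 3.10 and 3.59, and the highest neighbour is Disp3 at 1.37 in 1057.

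The genes whose level followed each member most closely were ranked over the 24 group means of log2(CPM + 1) among 16596 genes, as a description. These means share lines and control groups and are not independent. For Nppb the closest were Akap2 (Pearson's r = 0.961), Tm4sf1 (r = 0.96) and Emp1 (r = 0.956), and 0 of these 3 were among the first 3 by Spearman's rho. For Npr1 they were Tubg2 (r = 0.97), Trpv2 (r = 0.968) and Gnptg (r = 0.946), and for Npr2 H2-K1 (r = 0.936), 1110008P14Rik (r = 0.933) and Uqcc2 (r = 0.923). Npr3 had the closest companions, with Gas6 (r = 0.992), Hspbap1 (r = 0.989) and Mmaa (r = 0.987).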

How the data were processed

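RNA of 72 libraries was sequenced as stranded, polyA-selected paired-end reads. Reads were aligned by the authors with STAR to mm10 (GRCm38.p5, GENCODE M13), and their processing notes name FastQC 0.11.5. The authors deposited raw counts per gene and library, without normalization, and TPM values scaled to transcript length, in which a decimal comma is used for the 12 libraries of 1057. Whether the counting used strand is not given in the sources used here. Of the 50600 gene identifiers, 99.6% were paired with a symbol through GENCODE M21, and promoter sequences came from RefSeq (GRCm38.p6).

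From the counts, genes were kept by filterByExpr, scaled by TMM and put through the quasi-likelihood F test of edgeR 4.0.16 in R 4.3.3, with 12 libraries in the fit of each line, with DESeq2 1.42.0 as an alternative. Line pairs were fitted on the 18 libraries given RC. A call needed an adjusted p (Benjamini-Hochberg, over all genes) under 0.05 together with an absolute log2 fold change above 1. CPM were normalized by TMM within each line, also for the sums of markers by treatment and the mean levels of Grpr. Other marker values and the label checks were normalized over the 72 libraries. Intervals were not given, and floors of 3 counts (0.064 to 0.154 CPM) cover counting error only, since reads carry no molecular identifiers. Replicates were compared by chi-square, whose lowest value was 2.436 for each degree of freedom, so no library was a copy. The edgeR test was tested on simulated data for GRP+RC against RC in each of the 6 lines and for 1057 against 1064, and figures were drawn with matplotlib 3.10.9.

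Samples were grouped by the lines, treatments and replicate numbers of the labels. Same-numbered samples were taken as paired where the correlation of their deviations from the group means was over 0.1 in every pair. This held in 1064 (mean 0.733), 1014-Grpr (0.468) and 1181-Ctrl (0.792), and not in 1057 (0.023), 1181-Grpr (0.404) and 1014-Ctrl (0.312). Nothing beyond the label numbers and these correlations speaks for the pairing.

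The 5 members, the pathway list, the markers and the motifs were chosen with earlier results of these data known. All members are given, with values in each library of a line where any library is above the floor, and fold changes for Nppb and for members called. Pathway genes are named where called, neighbours where called or nearest on each side, and for likeness the first 3 by Pearson's r. Other pathway genes are named as examples, chosen after their values were seen. The alternatives were DESeq2, its size factors, no filter, calls by the adjusted p without the fold, the replicate number as a block, all 72 libraries fitted together, leaving out each replicate or the 2 libraries, the authors' TPM, and for likeness rank correlation and a pseudocount of 0.25 in place of 1.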

Additional observations from a re-analysis of the deposited data

Results flagged for a closer look

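Pde1b and Vasp, genes of the cGMP pathway, had log2 fold changes of opposite sign in GRP against mock in different lines. The GRP and mock libraries did not overlap in these lines, but the differences were not tested, and neither fall was called. Every GRP library of 1014-Grpr was above its mock libraries for Pde1b and every GRP library of 1181-Grpr was below them, and the log2 fold changes differed by 3.77. In 1181-Grpr the values were at most 17 counts and changed from 0.514, 0.578 and 0.597 CPM to 0.447, 0.51 and 0.455 CPM. This was a log2 fold change of -0.25 ± 0.34 (SE), which was not called.

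Vasp was higher after GRP in all libraries of 1057, 1064 and 1014-Grpr and lower in all of 1014-Ctrl. Its log2 fold changes differed from that of 1014-Ctrl by 0.87 in 1057, by 1.83 in 1064 and by 1.70 in 1014-Grpr, and these differences were not tested. In 1014-Ctrl Vasp was at 130, 209 and 124 CPM in mock and at 122, 119 and 122 CPM after GRP. The 209 CPM came from the library labelled 1014-Ctrl mock replicate 2, which went against its label. That library is included in the log2 fold change of 1014-Ctrl, -0.35 ± 0.16 (SE), and so in each of these differences.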

How the results depend on the processing

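Of 340 log2 fold changes of named genes recomputed under the alternatives, 309 kept their direction and their side of the threshold, 20 lost the call (3 of members and 17 of pathway genes and neighbours), 1 became a call (Npr1, 1057 against 1014-Ctrl without replicate 1, -1.08) and 10 reversed, all of members. For Nppb in GRP against mock these were 1181-Ctrl without replicate 1 (-0.21, up to 0.29 over the 3 left-out replicates) and 1014-Ctrl without replicate 2 (-0.15, up to 0.49) and without the 2 libraries and with the replicate block (-0.13), and in GRP+RC against RC 1014-Ctrl without replicate 2 (-0.02, up to 0.07). Npr3 in GRP against mock in 1014-Ctrl reversed without replicate 2 (0.10, down to -1.02), without the 2 libraries (0.10) and with the replicate block as well (0.09). In GRP+RC against RC in 1181-Grpr, Npr1 (-0.01) and Npr3 (0.13) reversed without the 2 libraries. Npr2 in 1057 against 1064 reversed without replicate 3 (-0.06, up to 0.11). Of 192 mean levels, 3 moved by more than the spread between replicates. The number of calls of members in GRP+RC against RC was 1, 0 in one fit of all 72 libraries and 2 by the adjusted p alone. For the pathway list in GRP against mock it was 8, 34 by the adjusted p alone and 3 to 6 over the fits that left out 1 replicate, and with the replicate block, whose pairing held in 3 lines, it was 11. In the control lines 0 pathway genes were called, and 1 (Pde3b in 1014-Ctrl) in one fit of all 72 libraries. In GRP+RC against RC 0 were called, and 9 by the adjusted p alone. For the neighbours in GRP against mock the number was 1, 0 to 1 with each replicate left out, 0 in one fit of all 72 libraries and 16 by the adjusted p alone. The calls of members between lines numbered 7, 6 to 8 with each replicate left out and 10 by the adjusted p alone. The cause of these shifts was not tested, other than that fewer samples or a looser rule enter by construction. Low counts, at most 2 for Nppa, 8 for Nppc and 6 for the cardiac factors, limit what can be said of these genes.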
